A study of Mus musculus with 10 samples.

Results

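The 10 genes described here encode the cyclins, cyclin-dependent kinases (CDKs) and inhibitors that act in the G1 phase of the cell cycle. They were taken by name: the D-type cyclins *Ccnd1*, *Ccnd2* and *Ccnd3*, the E-type cyclins *Ccne1* and *Ccne2*, the kinases *Cdk2*, *Cdk4* and *Cdk6*, and the inhibitors *Cdkn1b* and *Cdkn2c*. All 10 were on the array, with 27 probe sets, out of 18193 genes and 45037 probe sets. A probe set is the group of short oligonucleotides that gives 1 value for a transcript.

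The study asked how culture conditions affect germ cell-related genes in embryonic stem cells (ESCs) that lose MAX, the dimerization partner of MYC proteins. The cells were male mouse ESCs of strain 129SV. In every group both copies of the endogenous *Max* gene were disrupted and a *Max* cDNA at the *ROSA26* locus was driven by a tetracycline-off system, which doxycycline (Dox) shuts down. Expression was measured on 10 Affymetrix arrays. In LIF+serum, the conventional ESC medium with leukaemia inhibitory factor, 1 array each was made from *Max*-null ESCs treated with Dox for 1, 2, 3, 4, 6 and 8 days, and 2 arrays were made from untreated cells. The labels name the first untreated array as the reference for 1 to 4 days (the first set) and the second as the reference for 6 and 8 days (the second set). In the 2i+LIF condition, which adds the MEK inhibitor PD0325901 and the GSK3β inhibitor CHIR99021, 1 array came from cells kept in 2i with Dox for 6 days and 1 array from untreated cells kept in 2i for 6 days. The labels do not tell whether the untreated arrays are independent cultures. Each Dox time has 1 array, so the p-values rest on how far arrays lie from the fitted line or step. That distance mixes change between days with array-to-array spread, some or all of which could be technical.

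Background: D-type cyclins bind CDK4 and CDK6, and E-type cyclins bind CDK2. Both kinds of complex phosphorylate the retinoblastoma (RB) family, which releases E2F transcription factors and lets cells enter S phase. The inhibitor p27, encoded by *Cdkn1b*, binds cyclin-CDK complexes broadly, whereas p18, encoded by *Cdkn2c*, binds CDK4 and CDK6. Mouse ESCs are known for a short G1 phase, abundant cyclin E with CDK2 and little control by RB, and *Ccnd2* and *Cdk4* are known as MYC targets in other cell types.

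Because MYC-MAX dimers bind the E-box CACGTG, the promoter windows of the members were searched for it. RefSeq windows on GRCm38.p6 were at hand for 7 of the 10 members: *Cdk2*, *Cdk4*, *Cdk6*, *Ccnd3*, *Ccne1*, *Cdkn1b* and *Cdkn2c*. Each window runs from 250 bases before to 50 bases after the annotated transcription start. The 250 bases before the start are shown 5′ to 3′ for the kinase genes *Cdk4* (chr10:127063285-127063534, plus strand) and *Cdk6* (chr5:3343643-3343892, plus strand), since *Cdk4* has the most E-boxes of the members and *Cdk6* encodes the alternative partner of the D-type cyclins. Capitals mark CACGTG, which reads the same on both strands.
Cdk4: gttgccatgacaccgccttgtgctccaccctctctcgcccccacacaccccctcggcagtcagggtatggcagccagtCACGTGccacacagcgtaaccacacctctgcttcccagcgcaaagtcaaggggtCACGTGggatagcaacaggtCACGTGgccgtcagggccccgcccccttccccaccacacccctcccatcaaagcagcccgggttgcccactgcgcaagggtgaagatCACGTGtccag
Cdk6: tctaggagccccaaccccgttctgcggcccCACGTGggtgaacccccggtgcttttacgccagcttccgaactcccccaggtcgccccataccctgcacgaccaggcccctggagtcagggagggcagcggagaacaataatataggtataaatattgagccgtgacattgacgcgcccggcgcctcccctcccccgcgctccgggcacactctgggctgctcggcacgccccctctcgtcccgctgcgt

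The *Cdk4* window held 4 copies of CACGTG, beginning 172, 118, 98 and 11 bases before the start. The *Cdk6* window held 1, beginning 220 bases before the start, and *Cdkn2c* held 1 in the first 50 transcribed bases of 1 of its windows. Of 32851 windows in the table, 2349 (7.15%) held at least 1 copy and 8 (0.0244%, from 6 genes) held at least 4. The windows of *Cdk2*, *Ccnd3*, *Ccne1* and *Cdkn1b* held none. A search of both strands for the E2F motifs TTTCCCGC, TTTCGCGC, TTTGCCGC and TTTGGCGC matched only *Cdk2* among these members, 1 time, against 744 (2.26%) of all windows, and no E-box overlapped that match. A match is a description of these letters, not of binding.

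All values below are log2 values of the authors' robust multi-array average (RMA), on which a difference of 1 is a 2-fold difference. A gene was read from its brightest probe set unless stated. The single *Max* probe set with 1 symbol, 1423501_at, read 5.57, 5.53, 5.60, 5.07 and 5.20 at 0, 1, 2, 3 and 4 days in the first set and 5.74, 6.20 and 6.20 at 0, 6 and 8 days in the second. In 2i+LIF it read 5.54 with Dox and 5.75 untreated. Its place relative to the disruption and to the cDNA is not stated, so it gives no check of the labels. All 8 ESC markers examined (among them *Pou5f1*, *Nanog* and *Sox2*) lay above the array median on every array, with a mean of 11.52 to 12.23. By the limma trend *Klf4* (0.24 per day, adjusted p = 0.0069) and *Nanog* (0.11, adjusted p = 0.0433) rose with Dox. *Utf1* fell (-0.14, adjusted p = 0.0295), and the other ESC markers did not pass. Fibroblast markers had a mean of 4.47 to 5.36, with 1 to 3 of 8 above the median, and *Pdgfrb* rose by 0.36 per day of Dox (adjusted p = 0.00763, limma). Primitive endoderm markers had a mean of 5.94 to 6.95 and trophectoderm markers of 5.14 to 6.06, each highest at 8 days. The trophectoderm marker *Krt7* rose by 0.38 per day (adjusted p = 0.0133, limma) and was 9.26-fold above untreated at 6 days. It was the only 1 of 7 trophectoderm markers to pass, as *Pdgfrb* was of 8 fibroblast markers. The other slopes in both lists lay on both sides of 0, and no primitive endoderm marker passed. Of 6 germline markers, 5 rose. The part of these markers in the results on the members was not tested. Median values lay between 5.26 and 5.33 on the LIF+serum arrays and at 5.16 with Dox and 5.14 untreated in 2i+LIF. The β-actin 3′ minus 5′ difference, a sign of RNA integrity, was 0.41 to 0.56 in the first set, 0.88, 1.46 and 1.22 at 0, 6 and 8 days in the second set, and 0.76 with Dox and 0.78 untreated in 2i+LIF. In bulk samples, fewer cells of a type and less RNA per cell cannot be told apart.

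With days of Dox in LIF+serum, the D-type cyclin gene *Ccnd1*, its kinase gene *Cdk4* and the E-type cyclin gene *Ccne1* fell, and the E-type cyclin gene *Ccne2* and the inhibitor gene *Cdkn2c* rose. The other 5 genes did not pass. The trend was a slope per day over the 8 LIF+serum arrays, fitted in limma with the array set as a covariate, with Benjamini-Hochberg adjustment over all 45037 probe sets and a threshold of 0.05. It called 3 of 10 members lower, against 4.17% of all probe sets, and 2 of 10 higher, against 4.77% of all probe sets. The median slope was -0.01 per day over the members and -0.01 over all probe sets. By role, 2 of 5 D-type cyclins and partner kinases fell and none rose, 1 of 3 E-type cyclins and their kinase fell and 1 rose, and 1 of 2 inhibitors rose. A second limma fit, all Dox arrays against both untreated arrays with the set as covariate, called only *Ccne2* (1 of 10 higher, against 1.88% of probe sets) and no member lower (against 1.11%). At unadjusted p under 0.05 it had 3 of 10 members lower and 1 higher. Of all 45037 probe sets, 5408 were lower and 4969 higher at that unadjusted threshold.

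**Figure D1:**
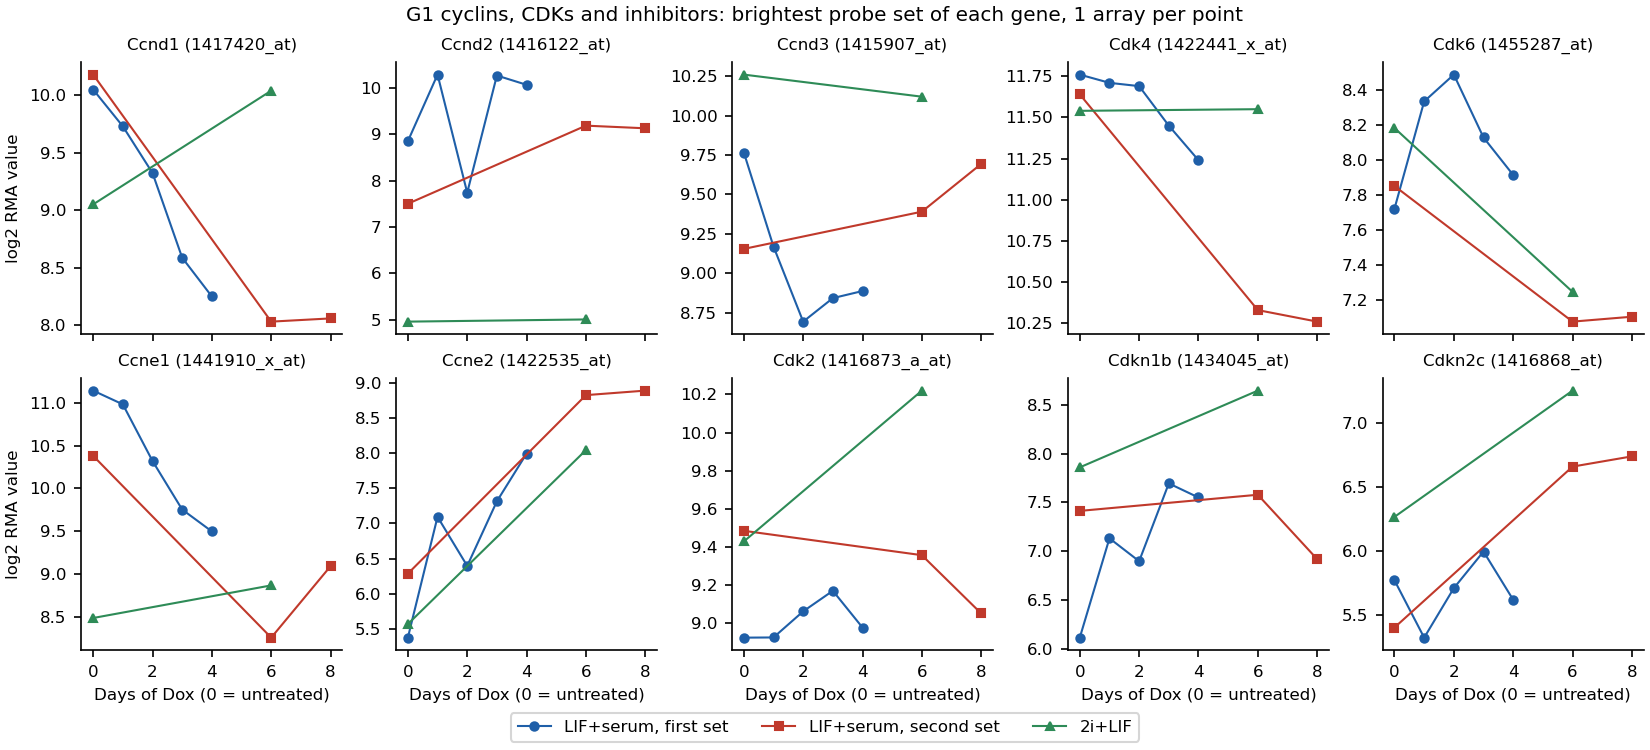
Log2 RMA value (y axis, own scale for each gene, not starting at 0) against days of Dox (x axis, 0 is untreated) for the brightest probe set of each of the 10 genes, 1 array per point, with lines joining arrays of 1 set. *Ccnd1* fell in both LIF+serum sets while its 2i+LIF array with Dox stood above the untreated one, and *Ccne2* stood above its untreated array at every Dox time.

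*Ccnd1*, which encodes cyclin D1 and is a classical target of mitogen signalling, had the clearest decline. In the first set it read 10.05, 9.73, 9.32, 8.59 and 8.25 at 0, 1, 2, 3 and 4 days. In the second set it read 10.18, 8.03 and 8.06 at 0, 6 and 8 days. Every Dox array was lower than both untreated arrays and each day of the first set was lower than the one before, while the 6 and 8 day arrays were at nearly the same level. The level was 3.48-fold lower at 4 days, 4.44-fold lower at 6 days and 4.36-fold lower at 8 days than on the untreated array of the set. The slope was -0.33 ± 0.04 per day (SE, adjusted p = 0.00362), and it passed within each set alone, with -0.47 (adjusted p = 0.0126) in the first and -0.29 (adjusted p = 0.00548) in the second. The all-Dox difference was -1.56 and missed the threshold (adjusted p = 0.0591), although 1 of the other probe sets, 1417419_at, passed it (adjusted p = 0.0471). All 3 *Ccnd1* probe sets fell, and 1417419_at reached the lowest ratio, 0.111 of untreated at 6 days.

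In 2i+LIF the same gene stood at 10.04 with Dox and 9.05 untreated, 1.98-fold higher with Dox. The other probe sets gave 1.73-fold and 2.18-fold, so all 3 were higher with Dox in 2i+LIF and lower with Dox at 6 days in LIF+serum. With 1 array a group there is no test of these differences. The untreated 2i+LIF array was 2.09-fold lower than the mean of the untreated LIF+serum arrays.

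*Ccnd2*, which encodes cyclin D2, did not follow a line in time. It read 8.85, 10.29, 7.74, 10.27 and 10.07 at 0, 1, 2, 3 and 4 days in the first set. It read 7.50, 9.19 and 9.13 at 0, 6 and 8 days in the second. The value was high at 1, 3 and 4 days and low at 2 days, below its own untreated array, and both late arrays stood above the untreated array of their set. The trend did not pass (0.23 ± 0.10 per day, SE, adjusted p = 0.225), although it did with the 2 day array left out (adjusted p = 0.0448) and within the second set alone (adjusted p = 0.0151). By this brightest probe set the untreated arrays themselves were far apart, the second at 0.392 of the first. Against the first untreated array its 6 day and 8 day levels were 1.26-fold and 1.21-fold higher, in place of 3.22-fold and 3.09-fold against their own. Over all 7 probe sets the second untreated array was at 0.392 to 1.098 of the first. The 6 day levels against the first untreated array ran from 0.761 (1416124_at) to 2.87 (1416123_at), so the probe sets disagreed.

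The low value at 2 days was present in all 7 *Ccnd2* probe sets, each of which had its lowest value of the first set there. The 2 day value minus the 1 day value was between -3.21 and -2.55, and the 3 day value minus the 2 day value between 2.34 and 2.87. Across the 8 LIF+serum arrays, which share this dip, pairs of these probe sets correlated at r = 0.68 to 0.99. Only 21 of 45037 probe sets (0.0466%) were at least 4-fold lower at 2 days than at 1 day, and 7 of them were *Ccnd2*. The other 14 belonged to 14 genes, among them *Adipoq*, *Slc25a31*, *Hormad1* and *Taf7l*, and 19 of the 21 were at least 2-fold higher again at 3 days. The median change of all probe sets between these days was 0.00. These counts were chosen after the values were seen, and with 1 array at 2 days the part of that array in the dip was not tested. The mean of the 6 germline markers was also lower at 2 days than at 1 and 3 days, at 6.61, 8.71, 7.36, 10.26 and 11.05 from 0 to 4 days, but unlike *Ccnd2* it stayed above its untreated array at 2 days.

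**Figure D2:**
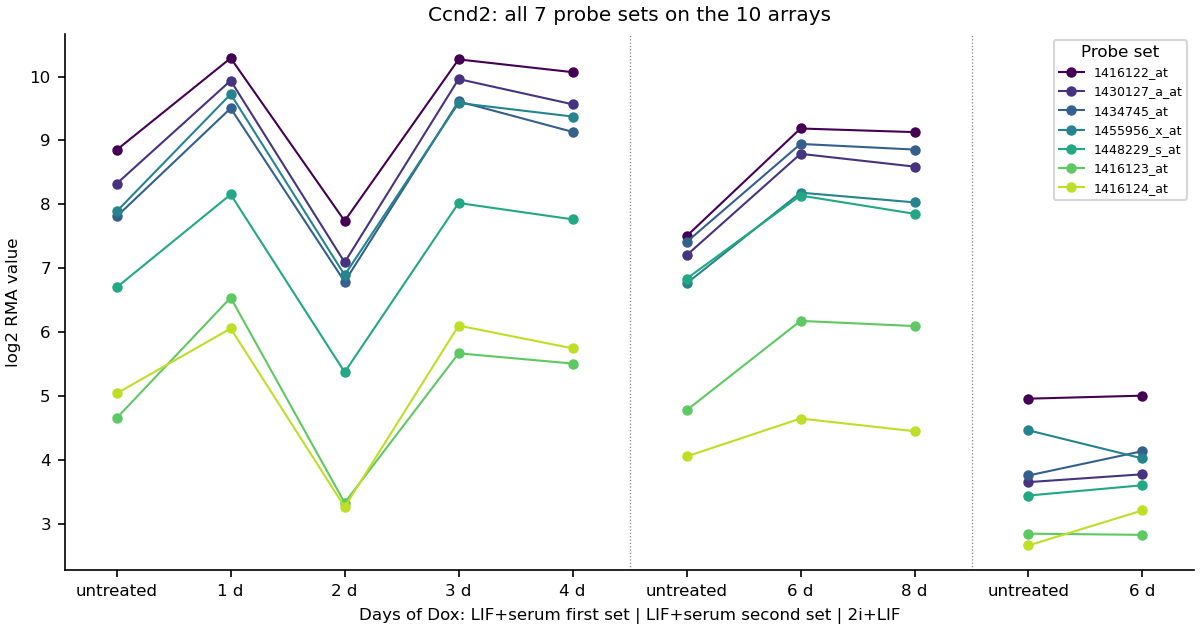
Log2 RMA value (y axis, not starting at 0) of the 7 *Ccnd2* probe sets on the 10 arrays (x axis, days of Dox; dotted lines part the first LIF+serum set, the second LIF+serum set and 2i+LIF), 1 array per point. All 7 lines dip at 2 days, and all 7 lie between 2.66 and 5.004 in 2i+LIF.

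In 2i+LIF *Ccnd2* was dim, at 5.004 with Dox and 4.96 untreated, a ratio of 1.03. All 7 probe sets were below the median of all probe sets on both 2i+LIF arrays, and their Dox over untreated ratios ran between 0.737 and 1.46. The untreated 2i+LIF array was 9.32-fold lower than the mean of the untreated LIF+serum arrays, and between 3.66-fold and 17.3-fold lower over the 7 probe sets. It was the widest gap between the media among the 10 genes.

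*Ccnd3*, which encodes cyclin D3, had no trend (0.00 per day, adjusted p = 0.996). It read 9.77, 9.17, 8.69, 8.84 and 8.89 at 0, 1, 2, 3 and 4 days, and 9.15, 9.39 and 9.69 at 0, 6 and 8 days. Every Dox array of the first set was below its untreated array, and both of the second set were above theirs. The slope within the first set alone was -0.21 (adjusted p = 0.161). In 2i+LIF *Ccnd3* stood at 10.12 with Dox and 10.26 untreated, the brightest of its 10 values being the untreated 2i+LIF one.

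*Cdk4*, which encodes the kinase partner of the D-type cyclins and whose window held 4 E-boxes, fell late by its brightest probe set. It read 11.76, 11.71, 11.69, 11.45 and 11.24 at 0, 1, 2, 3 and 4 days, and 11.64, 10.33 and 10.26 at 0, 6 and 8 days. The 1 and 2 day values lay between those of the untreated arrays, the 3 and 4 day values below both, and the 6 and 8 day values far below all others. The level was 2.49-fold lower at 6 days and 2.60-fold lower at 8 days than on the untreated array of that set. The slope was -0.17 ± 0.03 per day (SE, adjusted p = 0.00716), with -0.18 in the second set alone (adjusted p = 0.025) and -0.13 in the first (adjusted p = 0.206). The 6 and 8 day arrays also had the widest β-actin 3′ minus 5′ differences, 1.46 and 1.22, and the part of this in the result was not tested. All 3 probe sets fell, with slopes between -0.23 and -0.17. The other probe sets had steeper slopes in the first set alone and just missed the threshold there. These were -0.22 for 1422439_a_at (adjusted p = 0.0546) and -0.24 for 1422440_at (adjusted p = 0.0573). At 1 and 2 days 1422439_a_at, at 10.87 and 10.82, was already below both untreated arrays, at 11.07 and 10.97. In 2i+LIF *Cdk4* was at 11.55 with Dox and 11.54 untreated, a ratio of 1.01, and the other probe sets gave 0.988 and 1.06.

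*Cdk6*, which encodes the other kinase of the D-type cyclins, had its highest values early and its lowest values late by its brightest probe set. It read 7.72, 8.34, 8.49, 8.13 and 7.92 at 0, 1, 2, 3 and 4 days, and 7.85, 7.08 and 7.11 at 0, 6 and 8 days. All 4 Dox arrays of the first set were above their untreated array, and both of the second set were below theirs. In the probe set 1435338_at the highest of the 8 LIF+serum values was the second untreated array, at 8.02, 1.73-fold above the first. The dim probe set 1460291_at went the other way in the first set, at 0.670, 0.673, 0.655 and 0.480 of untreated from 1 to 4 days. A straight trend did not pass (-0.07 per day, adjusted p = 0.312), nor did the other probe sets 1435338_at (adjusted p = 0.124) and 1460291_at (adjusted p = 0.101). In 2i+LIF *Cdk6* stood at 7.25 with Dox and 8.18 untreated, 1.91-fold lower with Dox. The probe set 1435338_at gave a ratio of 0.565 there, and 1460291_at gave 0.990. *Cdk6* was thus below untreated at 6 days of Dox in both media, 1.71-fold in LIF+serum.

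*Ccne1* and *Ccne2* encode cyclins E1 and E2, which share CDK2 as partner. *Ccne1* read 11.14, 10.98, 10.32, 9.75 and 9.50 at 0, 1, 2, 3 and 4 days, and 10.38, 8.26 and 9.09 at 0, 6 and 8 days. Each array of the first set was below the one before, and the 6 day array was the lowest of all 8. The level was 3.13-fold lower at 4 days, 4.35-fold lower at 6 days and 2.44-fold lower at 8 days than on the untreated array of the set. The second untreated array was at 0.589 of the first, and against the first the 6 and 8 day levels were at 0.136 and 0.241. The slope was -0.26 ± 0.06 per day (SE, adjusted p = 0.0275), with -0.45 in the first set alone (adjusted p = 0.0139) and -0.21 in the second (adjusted p = 0.0855). The call was lost without the 3 day array (adjusted p = 0.0514) or the 4 day array (adjusted p = 0.0755). The second probe set, 1416492_at, fell too (-0.28 per day, adjusted p = 0.023).

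*Ccne1* differed between the untreated arrays of the media as well, since the untreated 2i+LIF array was 4.84-fold lower than the mean of the untreated LIF+serum arrays, and 5.02-fold lower by 1416492_at. In 2i+LIF it was at 8.87 with Dox and 8.49 untreated, 1.30-fold higher with Dox by both probe sets. Its level with Dox in 2i+LIF stayed within the range of the late Dox arrays in LIF+serum.

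*Ccne2*, with 1 probe set on the array, moved up. It read 5.38, 7.09, 6.40, 7.32 and 7.99 at 0, 1, 2, 3 and 4 days, and 6.29, 8.82 and 8.89 at 0, 6 and 8 days. Every Dox array was above both untreated arrays. The level was 6.12-fold higher at 4 days, 5.80-fold higher at 6 days and 6.07-fold higher at 8 days than on the untreated array of the set. The untreated arrays differed by 1.88-fold, and against the first the 6 and 8 day levels were 10.9-fold and 11.4-fold higher. The slope was 0.39 ± 0.06 per day (SE, adjusted p = 0.00733), and it passed in the first set (0.55, adjusted p = 0.0388) and the second set (0.35, adjusted p = 0.0024). The all-Dox difference was 2.16 (adjusted p = 0.0398), a call that was lost when the 3, 6 or 8 day array or the second untreated array was left out (adjusted p between 0.053 and 0.131).

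In 2i+LIF *Ccne2* was at 8.04 with Dox and 5.57 untreated, 5.55-fold higher, and by brightest probe sets it was the only member at or past 2-fold there. At 6 days in LIF+serum the ratio was 5.80-fold against the untreated array of the set and 10.9-fold against the first untreated array, so how near the media lie depends on that array, and their difference has no test. The untreated 2i+LIF array was at 0.834 of the untreated LIF+serum mean.

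*Cdk2*, the kinase of the E-type cyclins, had no trend in LIF+serum (-0.03 per day, adjusted p = 0.599). It read 8.92, 8.92, 9.06, 9.17 and 8.98 at 0, 1, 2, 3 and 4 days, and 9.48, 9.36 and 9.05 at 0, 6 and 8 days. The highest of these 8 values was the second untreated array. In 2i+LIF it stood at 10.22 with Dox and 9.43 untreated, 1.73-fold higher with Dox, and the Dox value was the highest of all 10 arrays. The other probe set, 1447617_at, was dim throughout, between 1.84 and 2.34.

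*Cdkn1b*, which encodes p27, gave values that depended on the untreated array. It read 6.12, 7.13, 6.90, 7.70 and 7.55 at 0, 1, 2, 3 and 4 days, and 7.41, 7.58 and 6.92 at 0, 6 and 8 days. All 4 Dox arrays of the first set were above their untreated array, by up to 2.98-fold at 3 days, but the second untreated array was 2.45-fold above the first and lay among the Dox arrays. The trend did not pass over all 8 arrays (0.04 per day, adjusted p = 0.746) and missed the threshold in the first set alone (0.34, adjusted p = 0.0552). The dimmer probe set 1419497_at had a slope of the other sign (-0.10, adjusted p = 0.152), and the probe sets disagreed in direction at 1, 2, 3, 4 and 6 days. In 2i+LIF both were higher with Dox. The brighter stood at 8.64 with Dox and 7.86 untreated (1.72-fold), and 1419497_at at 7.18 with Dox and 6.32 untreated (1.82-fold). Both untreated values in 2i+LIF were above those in LIF+serum, 2.13-fold and 2.44-fold.

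*Cdkn2c*, which encodes p18, rose late. It read 5.77, 5.32, 5.71, 5.99 and 5.62 at 0, 1, 2, 3 and 4 days, and 5.40, 6.66 and 6.74 at 0, 6 and 8 days. The first set lay on both sides of its untreated array, and the 6 and 8 day arrays stood above all 6 others. The level was 2.39-fold higher at 6 days and 2.53-fold higher at 8 days than on the untreated array of that set. Against the first untreated array these levels were 1.85-fold and 1.96-fold higher. The 6 and 8 day arrays had the widest β-actin 3′ minus 5′ differences, 1.46 and 1.22, whose part in the result was not tested. The slope was 0.15 ± 0.04 per day (SE, adjusted p = 0.0453), with 0.18 in the second set alone (adjusted p = 0.0279) and 0.04 in the first (adjusted p = 0.828). The call was lost in 9 of 15 alternatives, among them leaving out any one of the 1, 2, 3, 6 and 8 day arrays (adjusted p between 0.0681 and 0.0936). In 2i+LIF it was at 7.25 with Dox and 6.26 untreated, 1.98-fold higher with Dox.

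**Figure D3:**
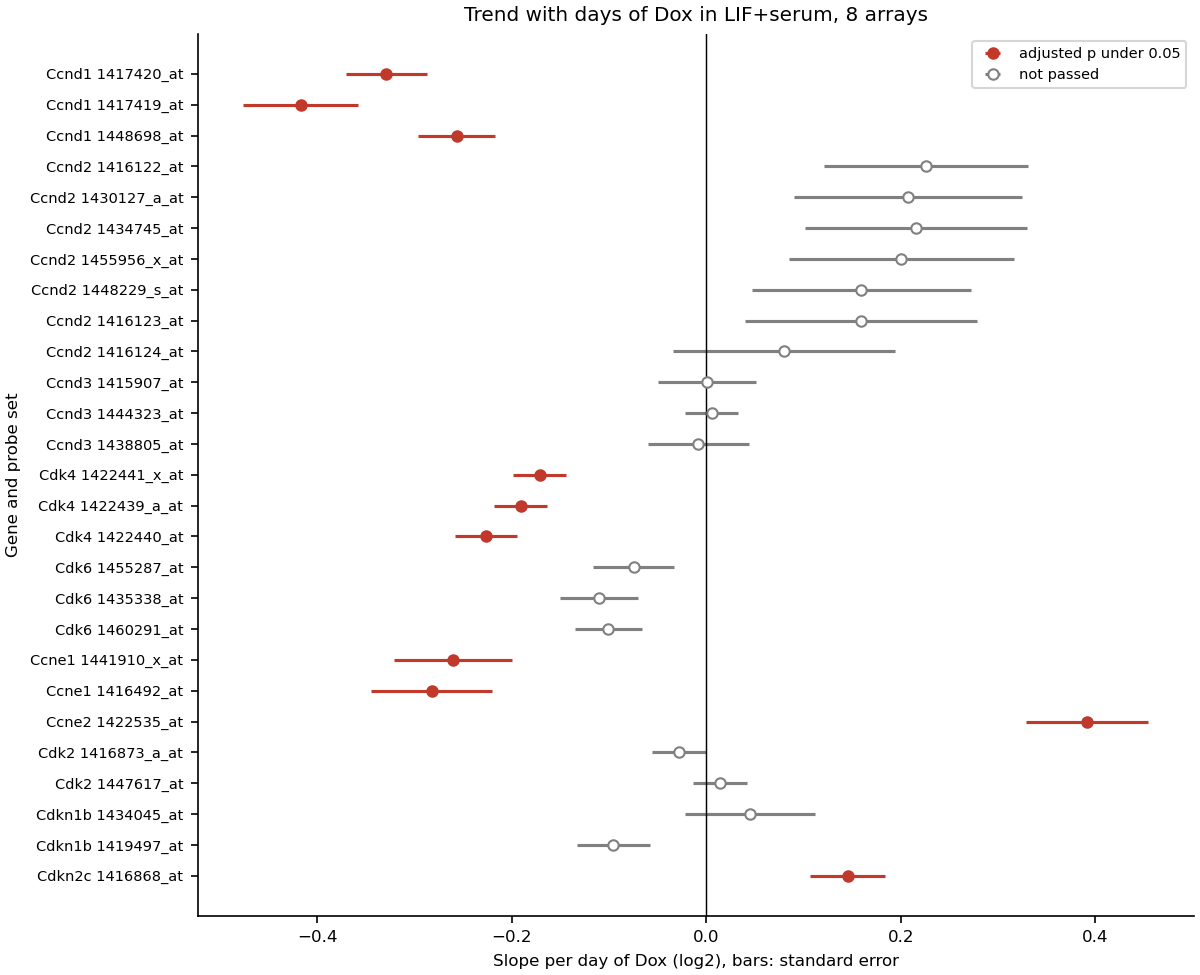
Slope of log2 value per day of Dox (x axis) for each of the 27 probe sets of the 10 genes (y axis) over the 8 LIF+serum arrays, with bars of 1 standard error on each side, filled where limma's adjusted p was under 0.05. All probe sets of *Ccnd1*, *Cdk4* and *Ccne1* passed with a slope below 0, and those of *Ccne2* and *Cdkn2c* passed above 0.

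All trend calls were lost in 1 fit with an array left out. Without the second untreated array, which left 6 and 8 days with no untreated array in their set, limma called no probe set by the trend (3165 higher and 2974 lower at unadjusted p under 0.05). Then *Ccnd1* (adjusted p = 0.245, unadjusted p = 0.000836), *Ccne2* (0.251 and 0.00502), *Ccne1* (0.325 and 0.0317), *Cdk4* (0.373 and 0.0524) and *Cdkn2c* (0.851 and 0.585) all missed the adjusted threshold. The slopes kept their signs but changed in size, to 0.0372 per day for *Cdkn2c*, -0.11 for *Cdk4*, -0.31 for *Ccne1*, -0.39 for *Ccnd1* and 0.46 for *Ccne2*. The first set alone, whose fit holds neither the second untreated array nor the 6 and 8 day arrays, still called *Ccnd1*, *Ccne1* and *Ccne2*. The loss of all calls was thus seen only where the 6 and 8 day arrays stayed in the fit with no untreated array of their set. The 2 untreated arrays were at least 2-fold apart in 4350 probe sets (9.66%), among them the brightest ones of *Ccnd2* and *Cdkn1b*.

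At 6 days of Dox the members were set beside each other in both media, each against 1 untreated array of its own set. In 2i+LIF 1 of 10 members was at least 2-fold higher with Dox, against 1.22% of all probe sets, and none was at least 2-fold lower, against 1.80%. In LIF+serum 3 of 10 (*Ccnd2*, *Ccne2* and *Cdkn2c*) were at least 2-fold higher, against 5.77%, and 3 of 10 (*Ccnd1*, *Cdk4* and *Ccne1*) were at least 2-fold lower, against 4.27%. At 1.5-fold, 5 of 10 members were higher in 2i+LIF with Dox (*Ccnd1*, *Ccne2*, *Cdk2*, *Cdkn1b* and *Cdkn2c*), against 4.96% of all probe sets, and *Cdk6* alone was lower, against 6.02%. The median log2 difference in 2i+LIF was 0.58 over the members and 0.02 over all probe sets. None of these values has a test, since each group is 1 array.

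**Figure D4:**
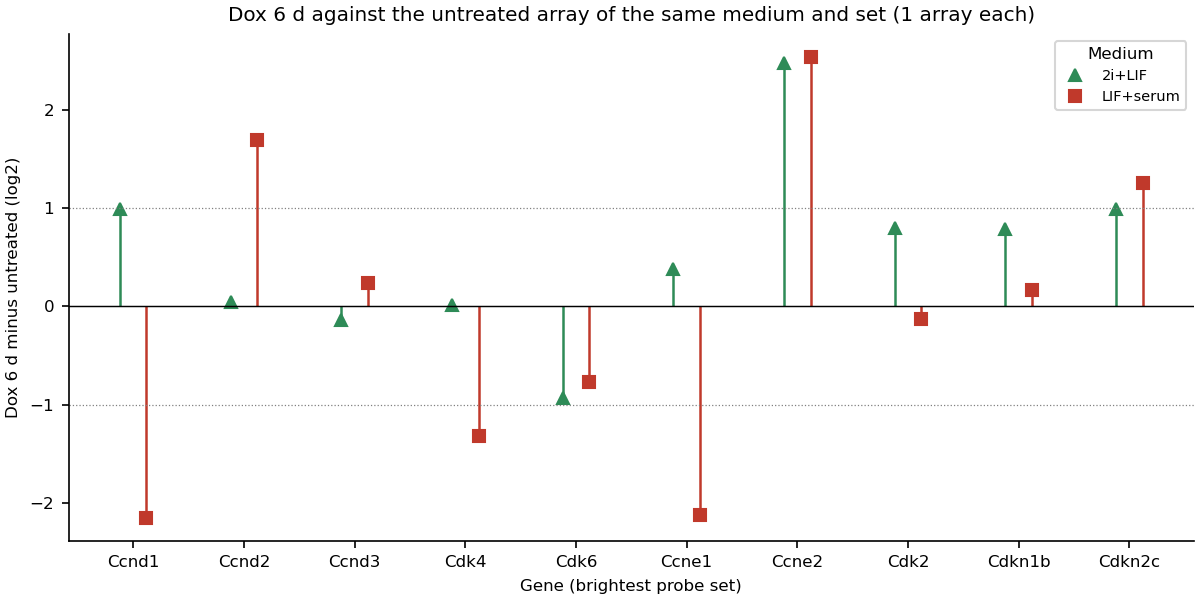
Log2 difference, Dox for 6 days minus untreated (y axis), for the brightest probe set of each gene (x axis) in 2i+LIF (triangles, left) and in LIF+serum (squares, right), 1 array a group; dotted lines mark 2-fold. *Ccne2* lay at 2.47 in 2i+LIF and 2.54 in LIF+serum, whereas *Ccnd1* lay at 0.99 in 2i+LIF and -2.15 in LIF+serum.

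Before Dox, the media already differed in these genes. In the untreated 2i+LIF array 3 of 10 members (*Ccnd1*, *Ccnd2* and *Ccne1*) were at least 2-fold lower than the mean of the untreated LIF+serum arrays, against 6.35% of all probe sets, and *Cdkn1b* was at least 2-fold higher, against 5.49%. *Ccnd3* was 1.74-fold and *Cdkn2c* 1.602-fold higher in untreated 2i+LIF. The dimmer *Ccnd3* probe sets went the other way, 1444323_at at 0.873 and 1438805_at at 0.509 of the untreated LIF+serum mean. No source used here says that the arrays of both media shared 1 normalization, so these are values without a test.

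Other genes of the G1 pathway were read from lists of 41 genes, of which 40 were measured. By the trend 2 rose, against 4.77% of all probe sets, and 5 fell, against 4.17%. By the all-Dox difference in limma none rose (against 1.88%, with 7 higher at unadjusted p under 0.05) and 1 fell (against 1.11%). At that unadjusted threshold 4969 of all 45037 probe sets were higher. Among 13 RB family and E2F-DP genes, 3 fell and 1 rose. *E2f8*, an atypical E2F that represses transcription, fell (-0.27 per day, adjusted p = 0.0038), to 0.248 of untreated at 8 days. *Tfdp1*, the E2F dimerization partner DP1, fell as well (-0.20, adjusted p = 0.0043), to 0.371 at 8 days, and *E2f7*, the other atypical E2F, fell (-0.13, adjusted p = 0.0454). *Tfdp2*, which encodes DP2, rose (0.23, adjusted p = 0.0214) and was 2.23-fold higher at 8 days.

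Among 12 measured regulators of the SCF and APC/C ubiquitin ligases, none rose and 2 fell by the limma trend (0 higher and 4 lower at unadjusted p under 0.05). Of all 45037 probe sets, the trend had 5252 higher and 5594 lower at that unadjusted threshold. *Skp2*, which encodes the SCF subunit that recognises p27, had a slope of -0.22 (adjusted p = 0.0198) and was at 0.427 of untreated at 8 days. Its second untreated array was at 0.488 of the first, and against the first its 8 day level was at 0.208. *Cks1b*, a cofactor of SKP2, had a slope of -0.14 (adjusted p = 0.0139) and was at 0.487 at 8 days. *Fbxo31*, an F-box protein, fell by the all-Dox difference only (-0.72, adjusted p = 0.041). Of the 5 CDK inhibitors outside the member list, *Cdkn1a*, which encodes p21, rose (0.16, adjusted p = 0.0148) and was 2.69-fold higher at 8 days. The other 4 did not pass. *Cdkn1a* read 8.82, 8.65, 8.56, 8.91 and 9.335 at 0, 1, 2, 3 and 4 days, and 9.09, 10.05 and 10.52 at 0, 6 and 8 days. For all these pathway genes, the 6 and 8 day arrays had β-actin 3′ minus 5′ differences of 1.46 and 1.22, whose part was not tested. The last list held 10 genes: the A cyclins, *Cdc25a*, the CDK-activating kinase genes, and *Cdk1*, *Wee1*, *Ccnc* and *Cdk8*. None of them passed (1 higher and 2 lower at unadjusted p under 0.05 by the limma trend).

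In 2i+LIF, *Cdkn2d*, an inhibitor of CDK4 and CDK6, was 2.34-fold higher with Dox and *E2f1*, an activating E2F, was 2.04-fold higher. They were the only genes of these 40 at or past 2-fold, and no gene was lower by that margin. Of all probe sets, 1.22% were at least 2-fold higher there and 1.80% at least 2-fold lower. The genes called in LIF+serum were within 2-fold there, from 0.576 for *E2f7* to 1.49 for *E2f8*.

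The genes whose LIF+serum pattern was most like that of *Ccnd1* and of *Ccne2* were ranked among 7788 genes with a range of at least 1 over the 8 arrays. By Pearson correlation over these arrays, which share their Dox times and untreated references, the closest to *Ccnd1* were *Utp23* (r = 0.99), *Nat10*, *Apex1*, *Odc1* and *2310022B05Rik* (all r = 0.99). In 2i+LIF with Dox these were at between 0.573 (*Utp23*) and 1.44-fold (*2310022B05Rik*), beside 1.98-fold for *Ccnd1*. The closest to *Ccne2* were *Slc30a1*, *Akap11*, *Jak2*, *Zfp867* and *Btbd10* (all r = 0.99). In 2i+LIF these were at between 0.958 (*Zfp867*) and 1.69-fold (*Slc30a1*), beside 5.55-fold for *Ccne2*. These correlations are descriptions and carry no test.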

How the data were processed

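RNA from *Max*-null ESCs was hybridized to Affymetrix GeneChip Mouse Genome arrays. The deposited values are log2 expression per probe set, which the authors background-subtracted and normalized by RMA in R (affy package; versions not given in the sources used here). No column of the table was left unused (0 columns), and it held no comparisons made by the authors. Of 45101 probe sets, 64 controls were left out. GEO's platform annotation gave 1 symbol to 34945 probe sets, several to 932 and none to 9160. A gene was read from its brightest 1-symbol probe set, by the mean over the 8 LIF+serum arrays.

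Slopes and all-Dox differences were fitted with limma 3.58.1 in R 4.3.3 (lmFit, eBayes, two-sided, Benjamini-Hochberg). Python 3.11.15 with matplotlib 3.10.9, numpy 2.4.6 and pandas 2.3.3 made the tables and figures. The fit was tested on simulated data. The number of arrays, 10 in all and 1 per Dox time, limits the precision. Alternatives were the set term, log2(day + 1), a minimum mean of 6, another quantile normalization, a trended robust eBayes, means over probe sets, each set alone, each array left out, 1.5-fold in place of 2-fold, and the mean of both untreated arrays.

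All members were named. Pathway genes were named where the trend or the all-Dox difference passed, and likeness was ranked for the member with the smallest trend p and the one with the largest ratio in 2i+LIF. The members and lists were chosen with earlier results of these data known. Counts of 2i+LIF genes at 2-fold in the pathway lists, and the 2 day comparison, were added after the values were seen.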

Additional observations from a re-analysis of the deposited data

Results flagged for a closer look

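At 6 days of Dox, the brightest probe sets of 5 of the 10 genes differed from untreated in opposite directions in the 2 media, by 1 array a group, so these differences were not tested. No size threshold was set, and the share of all probe sets with opposite directions was not counted. The count therefore shows nothing particular to these genes. The values are the 2i+LIF log2 difference minus the LIF+serum log2 difference. *Ccnd1* had the widest gap, 3.14, being higher with Dox in 2i+LIF and lower in LIF+serum. *Ccne1* had 2.50, *Cdk4* 1.33 and *Cdk2* 0.92, with the same directions. The *Ccne1* difference in 2i+LIF was 0.38, while its second untreated LIF+serum array minus the first was -0.76. The *Cdk4* difference in 2i+LIF was 0.02 and the *Cdk2* difference in LIF+serum was -0.13. Both were smaller than 0.25, the median SD between the untreated LIF+serum arrays over all probe sets. That SD describes 1 array, so it is a narrow yardstick for a difference between 2 arrays. *Ccnd3* had -0.37, with a 2i+LIF difference of -0.14 and a LIF+serum difference of 0.24, which are also smaller than that SD. With the mean of its probe sets both signs of *Ccnd3* turned, to 0.10 in 2i+LIF and -0.14 in LIF+serum. With means of probe sets *Cdkn1b* differed in opposite directions too, by 0.82 in 2i+LIF and -0.31 in LIF+serum.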

How the results depend on the processing

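Of the slopes, those of *Ccnd1* and *Ccne2* kept their direction under all 16 alternatives and lost the threshold under 1, without the second untreated array. *Cdk4* lost it under 2, *Ccne1* under 4 and *Cdkn2c* under 9 of 15. Of the 5 slopes that did not pass, that of *Ccnd2* kept its sign throughout and 4 changed it: *Ccnd3* to -0.0597 with log2(day + 1), -0.00072 with gene means and -0.21 in the first set alone; *Cdkn1b* to -0.0255 with gene means and -0.041 in the second set alone; *Cdk2* to 0.0028 without a set term and 0.0351 in the first set alone; *Cdk6* to 0.0179 in the first set alone. With an array left out, *Ccnd3* lay between -0.15 and 0.0445, *Cdkn1b* between -0.0101 and 0.23, *Cdk2* between -0.0374 and 0.0037, and *Cdk6* between -0.11 and 0.0173. *Cdk6* passed with gene means (adjusted p = 0.0379) and without the first untreated array (0.0483). Members rising by the trend numbered 2, and 1 with log2(day + 1), a minimum mean of 6, the first set alone or another quantile normalization. The minimum mean of 6 removed *Cdkn2c*, with a mean of 5.90, before the fit, so that gene had 15 alternatives. With an array left out, members rising numbered between 0 and 2, and members falling between 0 and 4. Over all probe sets the trend rose in 2150, in 1038 with gene means (fewer features tested) and in between 0 and 2739 with an array left out. It fell in 1879, in 1045 with gene means, 991 in the first set alone, 1159 in the second set alone and between 0 and 2581 with an array left out. By the all-Dox difference, 1 member rose, 0 without a set term or in the first set alone and 3 in the second set alone (between 0 and 2 with an array left out). 0 members fell, 1 with a minimum mean of 6 and 3 in the second set alone (between 0 and 2). Over all probe sets 848 rose, 271 with gene means, 0 without a set term or in the first set alone, 1496 in the second set alone and between 0 and 1350 with an array left out. 502 fell, 1138 with a minimum mean of 6, 250 with gene means, 0 without a set term or in the first set alone, 1056 in the second set alone and between 0 and 1146. At 1.5-fold, 5 members were higher and 1 was lower in 2i+LIF. Where not stated, the cause was not tested. The *Cdk2* probe set 1447617_at lay below the 25th percentile of all values (3.88) on every array, which limits what it can show.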
